A study of Mus musculus with 8 samples.

Results

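The MS4A genes examined here were Ms4a4a, Ms4a4b, Ms4a4c, Ms4a6b, Ms4a6c, Ms4a6d, Ms4a7 and Ms4a8a, 8 of the 53247 genes in the deposited expression table. The rule used their gene symbols, and the list was drawn up with earlier results of these data known. RNA-Seq had been performed on tumor-associated macrophages (TAMs) of 4 WT and 4 miR-21-/- samples, all from subcutaneous tumors grown from LLC, the Lewis lung carcinoma line of C57BL/6 origin. All hosts were C57/BL6 mice implanted at 8 weeks of age, and the tumors were taken after 14 days, when the mice were 10 weeks old. The TAMs were gated by FACS on CD45, CD11b, MHC class II and F4/80. The miR-21-/- mice (miR-21 null in the labels) carry a germline deletion of Mir21a and were bred onto the C57BL/6 background, so that every host cell, and not only the macrophage, lacks the miRNA, while the implanted LLC cells were the same in both genotypes. The labels call the samples biological replicates without saying whether each came from 1 mouse, and the name given to miR-21-/- replicate 1 combines a pair of numbers, which may stand for a pool, so the p-values measure only the spread between these 8 samples.

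MS4A proteins cross the membrane several times and have both ends in the cytoplasm. Most act as partners of other surface receptors and modulate their signaling or traffic. The best known are CD20 of B cells (Ms4a1) and the β chain of the high-affinity IgE receptor of mast cells (Ms4a2). Several mouse Ms4a4 and Ms4a6 genes and Ms4a7 are expressed by monocytes and macrophages. MS4A4A is a surface protein of alternatively activated macrophages and TAMs that associates with the β-glucan receptor Dectin-1, and Ms4a8a has been described on alternatively activated macrophages and TAMs.

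The genes lie in 1 cluster. In the coordinates of the table (GRCm38), the 19 Ms4a genes listed there occupy 679 kb of chromosome 19, from 10962293 to 11640851. Ms4a8a (ENSMUSG00000024730.7) lies from 11067471 to 11081102, Ms4a7 (ENSMUSG00000024672.11) from 11321039 to 11336146 and Ms4a6d (ENSMUSG00000024679.10) from 11586604 to 11604849, all on the minus strand. On the plus strand lie Ms4a4a (ENSMUSG00000101389.1, 11375523 to 11392790), Ms4a4c (ENSMUSG00000024675.19, 11404770 to 11427246), Ms4a4b (ENSMUSG00000056290.16, 11443553 to 11463549), Ms4a6c (ENSMUSG00000079419.4, 11469366 to 11482192) and Ms4a6b (ENSMUSG00000024677.13, 11516512 to 11531256). The longest coding transcript in GENCODE vM21 encodes between 217 residues (Ms4a6c) and 290 residues (Ms4a8a).

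Because the contrast removes a miRNA, the sequences that bear on a direct effect are those of the miRNA and of its possible sites. The mature miR-21a-5p of RefSeq (GRCm38.p6, chr11:86584120-86584141, minus strand) is shown with its seed, bases 2 to 8, in capitals:

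mmu-miR-21a-5p: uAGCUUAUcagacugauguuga

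No 7-base match to the seed (ATAAGCT) was found in the longest annotated 3′ UTR of the 7 Ms4a genes for which GENCODE gives one. These UTRs were 202 bases long in Ms4a8a and 3956 bases in Ms4a4b, with the others between 478 and 1673. Of 11449 tested genes with a 3′ UTR, 7.75% had such a match, in UTRs with a median of 1176 bases. The shorter TAAGCT was found once, in Ms4a4b, and in 26.6% of the tested genes. Ms4a4a has no annotated 3′ UTR and was not searched. These counts describe the annotated UTRs and say nothing of sites elsewhere in the transcripts.

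The promoter of Ms4a8a is shown because this gene alone among the 8 passed the threshold of the comparison given further on. It is the 250 bases before the RefSeq start (GRCm38.p6, chr19:11081104-11081353, minus strand, 5′ to 3′), with 1 AP-1 match and 2 matches to the MAF core in capitals:

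Ms4a8a: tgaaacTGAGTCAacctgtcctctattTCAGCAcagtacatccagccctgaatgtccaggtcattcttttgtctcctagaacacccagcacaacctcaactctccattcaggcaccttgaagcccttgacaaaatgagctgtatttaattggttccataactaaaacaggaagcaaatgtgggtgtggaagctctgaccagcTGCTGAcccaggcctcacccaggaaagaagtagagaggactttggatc

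A set of 7 motifs of macrophage factors was searched on both strands in the 250-base promoters of the 7 Ms4a genes that RefSeq gave one for, and each motif is given with the share of 32851 promoters that hold it. The AP-1 site (TGANTCA, 6.75%) was found 244 bases before the start of Ms4a8a and 81 bases before the second start of Ms4a7. The MAF core (TGCTGA, 16.1%) was found 223 and 48 bases before the start of Ms4a8a and 203 and 18 bases before that of Ms4a4a. The PU.1 core (GAGGAA, 23.3%) was found in Ms4a4b and Ms4a4c. The STAT site GAS (TTCNNNGAA, 7.02%), the interferon element ISRE (GAAA, any 2 bases and GAAA again, 2.98%), the C/EBP site (TTGCNNAA, 9.56%) and the E-box (CACGTG, 6.02%) were in none of these windows. A match is only a run of letters and was not tested as a binding site.

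The Ms4a4b and Ms4a4c promoters were the most similar pair, with 83.7% identity over the 100 bases before the start, against 38.1% to 52.4% for the other 20 pairs. These 100 bases are shown for both genes because their transcripts are also the most alike, with the PU.1 core in capitals (GRCm38.p6, plus strand, chr19:11443458-11443557 and chr19:11407561-11407660):

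Ms4a4b: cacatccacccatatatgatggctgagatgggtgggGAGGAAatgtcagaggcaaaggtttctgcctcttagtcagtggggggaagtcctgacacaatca

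Ms4a4c: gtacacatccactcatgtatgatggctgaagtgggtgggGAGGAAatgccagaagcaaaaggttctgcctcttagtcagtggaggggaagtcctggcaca

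The Ms4a6b and Ms4a6c promoters shared the longest unbroken run, 48 bases, which began 118 bases before the start of Ms4a6b and 49 bases before that of Ms4a6c. It is shown because it lies at different distances before the annotated starts of the 2 genes:

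Ms4a6b and Ms4a6c: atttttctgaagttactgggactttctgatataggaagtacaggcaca

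Ms4a4b and Ms4a4c shared a run of 20 bases, and the other 25 pairs, with both starts of Ms4a7 counted, runs of 7 to 9 bases. Between the coding sequences of the 8 genes, identity was 91.8% between Ms4a4b and Ms4a4c, 79.9% between Ms4a6b and Ms4a6d and 74.3% between Ms4a6b and Ms4a6c, against a median of 49.5% over all 28 pairs. Reads could therefore be split between near copies, and of all stretches of 50 bases in the transcripts of a gene, 8.19% in Ms4a4c and 2.40% in Ms4a4b also occurred in other genes. In Ms4a6c the share was 51.4%, nearly all of it in BE692007, a transcript annotated on the opposite strand across Ms4a6c. No stretch of Ms4a8a or Ms4a4a was shared with another gene.

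Values are CPM, counts per 1e+06 reads, as the authors deposited them. The depth, inferred from the spacing of low values in each library, was 20.2 to 33.4 times 1e+06 reads, and 1 read equalled 0.0300 to 0.0495 CPM. Mir21a, the deleted gene, was listed at the floor of the table, 0.0001 CPM, in all 8 samples, which leaves the labels of genotype without a check by this gene. The macrophage markers of a list of 10 summed to between 12034 and 13876 CPM in the WT samples and between 13087 and 15558 CPM in the miR-21-/- samples, and all 10 were detected. Their log2 fold changes lay between -0.48 (Csf1r) and 0.75 (Fcgr1, a receptor for IgG), and Fcgr1 was the 1 called, higher. Fold changes are miR-21-/- over WT of log2(CPM + 1) values, a scale on which changes of low genes appear too small, and p-values are from limma with Benjamini-Hochberg adjustment over all 13850 tested genes. To pass the threshold a gene needed an adjusted p of 0.005 or less together with a change of more than 1.5-fold. In bulk samples, fewer cells of a type and less RNA per cell cannot be told apart.

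The comparison of the genotypes asked which Ms4a genes of TAMs differ when the host lacks miR-21. Ms4a8a was 5.26-fold higher in miR-21-/- TAMs, whereas none of the other 7 genes passed the threshold, and their log2 fold changes lay between -0.25 (Ms4a6b) and 0.39 (Ms4a6d). All 8 genes passed the filter on low values. With 1 of 8 genes called higher and 0 of 8 called lower, the background was 2.89% of all tested genes called higher and 4.23% called lower. The values of the genotypes did not overlap in 2 of the 8 genes, against 35.1% of all tested genes. An adjusted p at or under 0.05, without a fold change limit, was reached by 3 of the 8, against 36% of all tested genes. The median log2 fold change was -0.061 over the 8 genes and -0.10 over all tested genes. The signs for Ms4a4b, Ms4a6c and Ms4a7 turned when the samples were rescaled by the median of ratios, and those of the other 5 genes did not; this rescaling moved the median of all genes by 0.0998, more than the size of these 3 log2 fold changes.

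**Figure D1:**
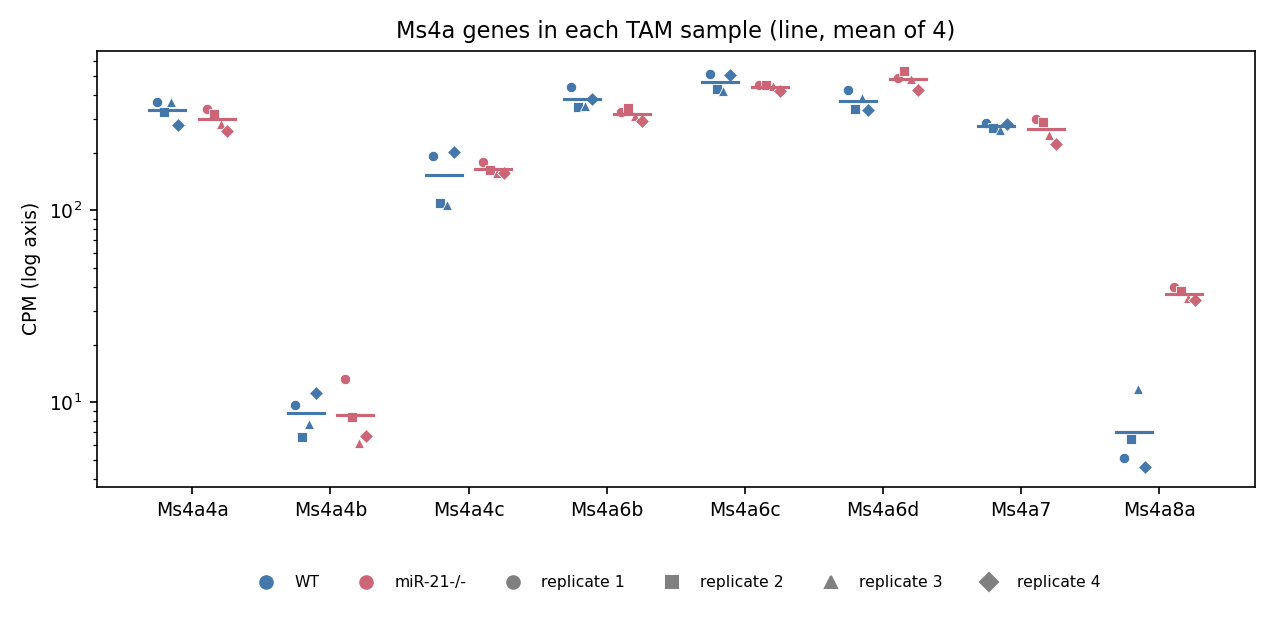
Level of each Ms4a gene in CPM on a log axis, with 1 point per TAM sample (blue, WT; red, miR-21-/-; the shape marks the replicate number) and a line at the mean of 4 samples. The 4 miR-21-/- values of Ms4a8a lie between 34.0 and 39.9 CPM, above the 4 WT values of 4.62 to 11.7 CPM, while the genotypes overlap in the other genes except Ms4a6b.

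Ms4a8a, the surface protein described on alternatively activated macrophages, was measured at 5.15, 6.48, 11.7 and 4.62 CPM in WT replicates 1 to 4. In miR-21-/- replicates 1 to 4 it was 39.9, 38.0, 35.2 and 34.0 CPM. The lowest miR-21-/- sample was thus well above the highest WT sample, and WT replicate 3 stood above the other WT samples. The means were 6.98 ± 3.23 CPM for WT and 36.7 ± 2.66 CPM for the miR-21-/- genotype (SD, 4 samples each). The log2 fold change was 2.32 (SE 0.21, 95% interval 1.84 to 2.79, adjusted p = 6.15e-05), the 22nd largest of the 400 genes that passed the threshold upward. With a pseudocount of 10 instead of 1 it was 1.48, still past the threshold. An exact permutation test of the CPM values, two-sided, gave p = 0.0286, the smallest that 4 samples against 4 allow. In reads, the values corresponded to 116 in the lowest and 1266 in the highest sample, and the difference did not rest on a few reads.

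The share of Ms4a8a in the summed CPM of the 8 genes was 0.356% ± 0.179 in WT and 1.82% ± 0.0527 in miR-21-/- TAMs. The sum itself was 1996 ± 177 CPM and 2016 ± 157 CPM, and without Ms4a8a it was 1989 ± 178 and 1979.5 ± 154 CPM. The total of the family was therefore nearly the same in both genotypes, within 1 SD, although the level of Ms4a8a was not.

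The summed levels of marker lists of other cells are given beside Ms4a8a. The 6 fibroblast genes, all detected, summed to 60.7 to 137 CPM in WT and 10.1 to 44.1 CPM in miR-21-/- samples, and 3 of the 5 tested were called lower, with Col3a1 at a log2 fold change of -2.51. The 7 neutrophil genes summed to 769 to 1169 CPM and 564 to 741 CPM, with log2 fold changes from -0.81 (Mmp8, the only one called) to 0.31 (Ly6g). The 6 mast cell and basophil genes summed to 5.51 to 6.19 CPM and 2.61 to 4.38 CPM, with none of the 3 tested called. The 4 epithelial genes summed to 18.8 to 24.8 CPM and 12.7 to 17.9 CPM, also with none of the 3 tested called. The monocyte list of 7 genes, at 751 to 1290 CPM and 657 to 1261 CPM, and the dendritic cell list of 6 genes, at 11.2 to 19.9 CPM and 15.2 to 38.4 CPM, overlapped between the genotypes and had no gene called. The 7 T cell genes summed to 13.0 to 15.5 CPM in WT and to 9.41 to 36.7 CPM in miR-21-/- samples, of which replicates 1, 2 and 4 were above every WT sample. The 6 NK cell genes summed to 4.26 to 12.6 CPM and 7.95 to 23.3 CPM, with a median log2 fold change of 0.91 over the 3 tested; no T or NK gene was called. No defining marker of these lists was at the floor in all samples. The part of such cells in the value of Ms4a8a was not tested.

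Among all tested genes, the 2 with the profile most like that of Ms4a8a over the 8 samples were Il12rb1 and Ccl8, by the root mean square difference of the centred log2 values (0.302 and 0.303). Il12rb1, the β1 subunit of the IL-12 receptor, was at 15.6 ± 3.78 (WT) and 59.2 ± 7.06 CPM (miR-21-/-), a log2 fold change of 1.88. Ccl8, a monocyte-attracting chemokine, was at 69.5 ± 31.1 and 388 ± 93.1 CPM, with a log2 fold change of 2.54. Since the likeness was taken over the same 8 samples, it describes these values and nothing else.

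**Figure D2:**
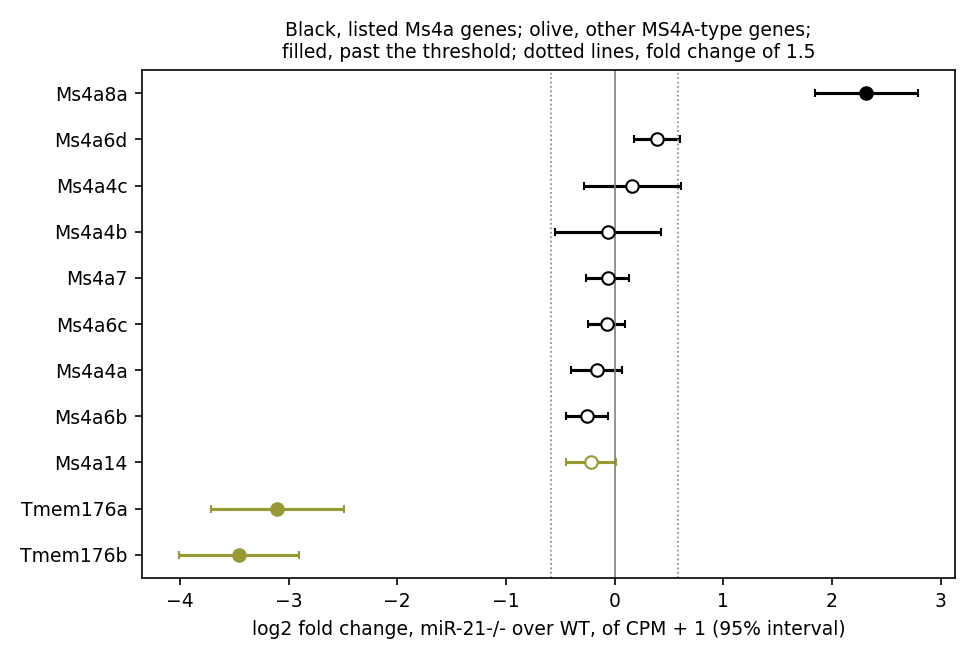
Log2 fold change of CPM + 1, miR-21-/- over WT, with its 95% interval from limma, for the 8 Ms4a genes (black), Ms4a14 and the MS4A-like Tmem176a and Tmem176b (olive); filled points passed the threshold and dotted lines mark a fold change of 1.5. Ms4a8a at 2.32 is the only filled point to the right, and Tmem176a and Tmem176b at -3.10 and -3.46 are the filled points to the left.

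Ms4a6d and Ms4a6b, close paralogs on opposite strands of the cluster, had log2 fold changes of opposite sign, and neither passed the threshold. Ms4a6d, whose product has been reported to pair with VSIG4 and MHC class II, was at 425, 340, 385 and 332 CPM in WT replicates 1 to 4. In miR-21-/- replicates 1 to 4 it was at 492, 536, 485 and 424 CPM. The genotypes touched in a single pair of samples, where miR-21-/- replicate 4 was just below WT replicate 1, and all other miR-21-/- samples were above all WT samples. The means were 370.4 ± 43.1 and 484 ± 46.1 CPM, with a log2 fold change of 0.39 (SE 0.095, 95% interval 0.18 to 0.60, adjusted p = 0.0108). The exact permutation p was 0.0571.

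Ms4a6b was at 442, 347, 348 and 383 CPM in the WT samples. In the miR-21-/- samples it was at 327, 341, 312 and 291 CPM. All 4 miR-21-/- samples were below all WT samples, but the gap between the nearest was small against the spread in WT. With means of 380.0 ± 44.5 and 318 ± 21.4 CPM, the log2 fold change was -0.25 (SE 0.086, 95% interval -0.44 to -0.062, adjusted p = 0.0427; exact permutation p = 0.0286). The adjusted p rose above 0.05 with no filter (0.104), with the median of ratios (0.292), without the intensity trend (0.0608) and when WT replicate 1 or 4 or miR-21-/- replicate 1, 3 or 4 was left out (0.0618 to 0.109).

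The ratio of Ms4a6d to Ms4a6b within each sample was taken after these values were seen. It was 0.961, 0.980, 1.11 and 0.867 in the WT samples. In the miR-21-/- samples it was 1.51, 1.57, 1.55 and 1.46. The genotypes did not overlap, which is given as a description since the pair was picked for its opposite signs, and a scaling factor per sample does not alter the ratio. Of the 50-base stretches of Ms4a6d, 2.31% also occurred in Ms4a6b; how reads were assigned between the paralogs was not tested. As a share of the 8 genes, Ms4a6d made up 18.6% ± 1.47 in WT and 24.0% ± 0.961 in miR-21-/- TAMs.

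Ms4a6c, the other gene of the Ms4a6 group, differed little between the genotypes against its spread. It was at 515, 428, 420.1 and 506 CPM in the WT samples and at 452, 449, 446 and 421 CPM in the miR-21-/- samples. All miR-21-/- samples were inside the WT range, and WT replicates 1 and 4 were the highest. The means of 467 ± 50.5 and 442 ± 14.2 CPM differed by a log2 fold change of -0.074 (95% interval -0.25 to 0.10, adjusted p = 0.488). BE692007, the transcript on the opposite strand, was at 71.5 ± 5.88 and 60.0 ± 4.06 CPM, with a log2 fold change of -0.25 (adjusted p = 0.0217) that was not called. Whether the reads were counted by strand is not given in the sources used here, so that the reads of the 2 genes may not be told apart.

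Ms4a4a, the Dectin-1 partner, did not pass the threshold. It was at 366, 326, 368 and 279 CPM in the WT samples and at 336, 316, 281 and 259 CPM in the miR-21-/- samples. The lowest WT sample, replicate 4, was below 3 of the miR-21-/- samples. The means were 335 ± 42.1 and 298 ± 34.5 CPM, with a log2 fold change of -0.16 (SE 0.11, 95% interval -0.40 to 0.07, adjusted p = 0.254).

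Ms4a7, a gene of tissue macrophages, was at 286, 268, 263 and 282 CPM in the WT samples and at 298, 290.3, 246 and 222 CPM in the miR-21-/- samples. The WT samples were tightly grouped, and the miR-21-/- samples lay on both sides of them. The log2 fold change was -0.065 (95% interval -0.27 to 0.14, adjusted p = 0.607), between means of 275 ± 10.8 and 264 ± 36.0 CPM. An increase or a decrease of more than 1.5-fold lay outside these intervals for Ms4a4a, Ms4a6b, Ms4a6c and Ms4a7.

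Ms4a4c split the WT samples and not the genotypes. It was at 191, 109, 107 and 203 CPM in the WT samples, of which replicates 1 and 4 formed a high pair and replicates 2 and 3 a low pair. In the miR-21-/- samples it was at 180, 163, 157 and 156 CPM, all between the WT pairs. The coefficient of variation was 33.8% in WT and 6.62% in miR-21-/- samples. The means of 153 ± 51.6 and 164 ± 10.9 CPM gave a log2 fold change of 0.16 (95% interval -0.28 to 0.61, adjusted p = 0.549), an interval that just reaches past a 1.5-fold increase.

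Ms4a4b, known in T and NK cells, where it associates with the costimulatory receptor GITR, was the least abundant of the 8 per length. It was at 9.66, 6.59, 7.74 and 11.2 CPM in the WT samples. In the miR-21-/- samples it was at 13.3, 8.38, 6.17 and 6.66 CPM, and the genotypes overlapped throughout. The log2 fold change was -0.057 (SE 0.22, 95% interval -0.54 to 0.43, adjusted p = 0.858). The highest sample, miR-21-/- replicate 1, was also the highest for the T cell and NK cell lists, although the gate on F4/80 selects against both cell types. In miR-21-/- replicates 1 to 4, the T cell genes summed to 36.7, 17.9, 9.41 and 20.5 CPM and the NK cell genes to 23.3, 10.6, 7.95 and 17.2 CPM. No marker of either list was at the floor in all samples, and the part of such cells in the level of Ms4a4b was not tested. The ratio of Ms4a4c to its near copy Ms4a4b was 13.9 to 19.8 in WT and 13.5 to 25.4 in miR-21-/- samples (exact permutation p = 0.371).

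Levels were ordered between genes per kilobase of annotated exon, whereas the shares and ratios above were taken on CPM without regard to length. In WT TAMs, Ms4a4a was the highest at 400.4 ± 50.4 CPM per kb, followed by Ms4a6c at 228 ± 24.6 and Ms4a6d at 213 ± 24.8 CPM per kb. Next came Ms4a4c at 87.2 ± 29.5, Ms4a6b at 84.7 ± 9.91 and Ms4a7 at 61.7 ± 2.42 CPM per kb. Ms4a8a, at 3.89 ± 1.80, and Ms4a4b, at 1.00 ± 0.234 CPM per kb, were far below the rest. By the ranges of the 4 WT samples, Ms4a6c could not be ordered against Ms4a6d, nor Ms4a4c against Ms4a6b or Ms4a7, while the other neighbors did not overlap.

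In miR-21-/- TAMs, the level of Ms4a6d per kb was 279 ± 26.6 CPM and that of Ms4a6c 216 ± 6.94 CPM, with Ms4a4a at 357 ± 41.2 CPM. Ms4a8a rose to 20.5 ± 1.48 CPM per kb, still below Ms4a7 at 59.3 ± 8.09 CPM per kb. The order of the middle genes depended on the length used. Per kilobase of the longest coding transcript, the WT level was 261 CPM for Ms4a6d, 254 CPM for Ms4a6c, 174 CPM for Ms4a7, 142 CPM for Ms4a6b and 88.6 CPM for Ms4a4c, while Ms4a4a remained the highest and Ms4a8a and Ms4a4b the lowest.

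**Figure D3:**
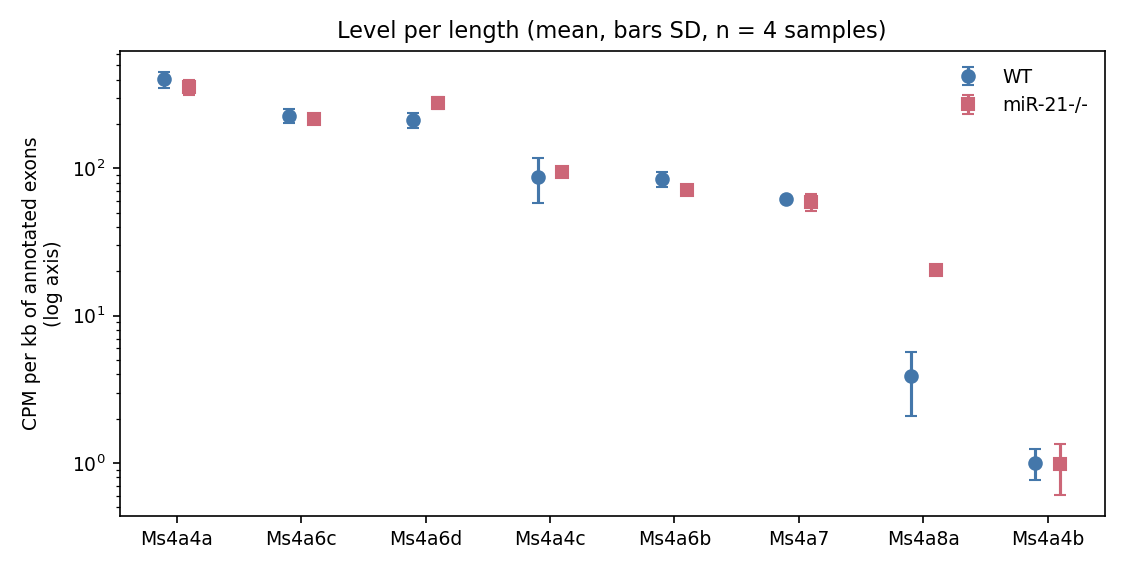
Level of each Ms4a gene in CPM per kb of annotated exons on a log axis, as the mean of 4 samples with bars of 1 SD (blue circles, WT; red squares, miR-21-/-). The genes fall from 400.4 CPM per kb for Ms4a4a to 1.00 for Ms4a4b in WT, and the genotypes are farthest apart on this axis for Ms4a8a, at 3.89 and 20.5, while the bars of Ms4a6d do not overlap either.

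The other 11 Ms4a genes of the table were low, with the exception of Ms4a14, the only one that passed the filter. Ms4a14 was at 77.7, 76.9, 83.3 and 71.8 CPM in WT and at 79.6, 68.7, 66.3 and 53.4 CPM in miR-21-/- samples, which overlap. Its log2 fold change of -0.22 was not called (adjusted p = 0.129). Ms4a1, which encodes CD20, was at 0.416 to 0.568 CPM in WT and at 1.27, 0.330, 0.269 and 0.298 CPM in miR-21-/- replicates 1 to 4. Ms4a4d was at 0.251 ± 0.105 and 0.265 ± 0.112 CPM. Ms4a2, Ms4a3, Ms4a5, Ms4a12 and Ms4a15 had at most 3 reads in any sample, and Ms4a10, Ms4a13 and Ms4a18 were at the floor in all 8. The 6 B cell genes summed to 11.7 to 18.1 CPM and 3.69 to 11.8 CPM, with Cd79b, the only one tested, called lower at a log2 fold change of -1.45.

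Tmem176a and Tmem176b encode MS4A-like proteins but lie on chromosome 6, head to head, from 48840919 to 48847071 and from 48833818 to 48841496. Tmem176b was at 50.1, 120.3, 59.2 and 94.9 CPM in WT and at 7.02, 4.50, 6.22 and 6.75 CPM in miR-21-/- samples. Tmem176a was at 22.4, 58.5, 26.6 and 41.3 CPM in WT and at 3.81, 1.98, 3.11 and 4.07 CPM in miR-21-/- samples. Both fell without overlap between the genotypes, the opposite of Ms4a8a. Their WT means were 13.3-fold and 11.5-fold the miR-21-/- means, with log2 fold changes of -3.46 (SE 0.25, adjusted p = 1.61e-05) and -3.10 (SE 0.28, adjusted p = 5.05e-05). With a pseudocount of 10 the log2 fold changes were -2.43 (Tmem176b) and -1.77 (Tmem176a), still past the threshold. Because the 2 genes overlap at their starts, reads there may not be told apart.

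Of 8 genes listed as reported partners or neighbors in function of MS4A proteins, 7 were tested, of which 1 was called higher and 0 lower, beside 2.89% and 4.23% of all tested genes. Clec7a, which encodes Dectin-1, was at 121, 122, 124 and 99.2 CPM in WT and at 378, 325, 312 and 335 CPM in miR-21-/- samples. Every miR-21-/- sample was above every WT sample, with a log2 fold change of 1.53 (SE 0.085, adjusted p = 3.02e-06), while its partner Ms4a4a had a log2 fold change of -0.16. Vsig4, a complement receptor of resident macrophages and a reported partner of Ms4a6d, was under the filter at 0.644 ± 0.255 and 0.0567 ± 0.0466 CPM, without overlap (exact permutation p = 0.0286). The MHC class II genes H2-Ab1 and H2-Aa and the invariant chain Cd74 had log2 fold changes of -0.011, -0.13 and 0.092. Trem2 (0.22), Tnfrsf18, which encodes GITR (-0.16), and the stem cell factor receptor Kit (-0.42, adjusted p = 0.0732) were not called either.

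Of 36 genes listed between the outermost Ms4a genes, 16 were tested and 2 were called higher, Ms4a8a and AW112010, with 0 called lower, beside 2.89% and 4.23% of all tested genes. AW112010 is annotated as a noncoding transcript and is known to be induced by IFN-γ and LPS. It lies on the same strand as Ms4a8a from 11047617 to 11050566, with 16.9 kb between the 2 genes. It was at 43.0, 49.8, 65.5 and 72.7 CPM in WT and at 256, 272, 245 and 267 CPM in miR-21-/- samples. The genotypes were far apart, at 57.8 ± 13.7 and 259.9 ± 12.4 CPM, with a log2 fold change of 2.18 (SE 0.14, adjusted p = 9.05e-06). The other 14 tested genes of the cluster had log2 fold changes between -0.34 (Gm8369) and 0.39 (Ms4a6d). Among the 3 nearest genes on each side of the cluster, only Ccdc86 was tested (0.027, not called).

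**Figure D4:**
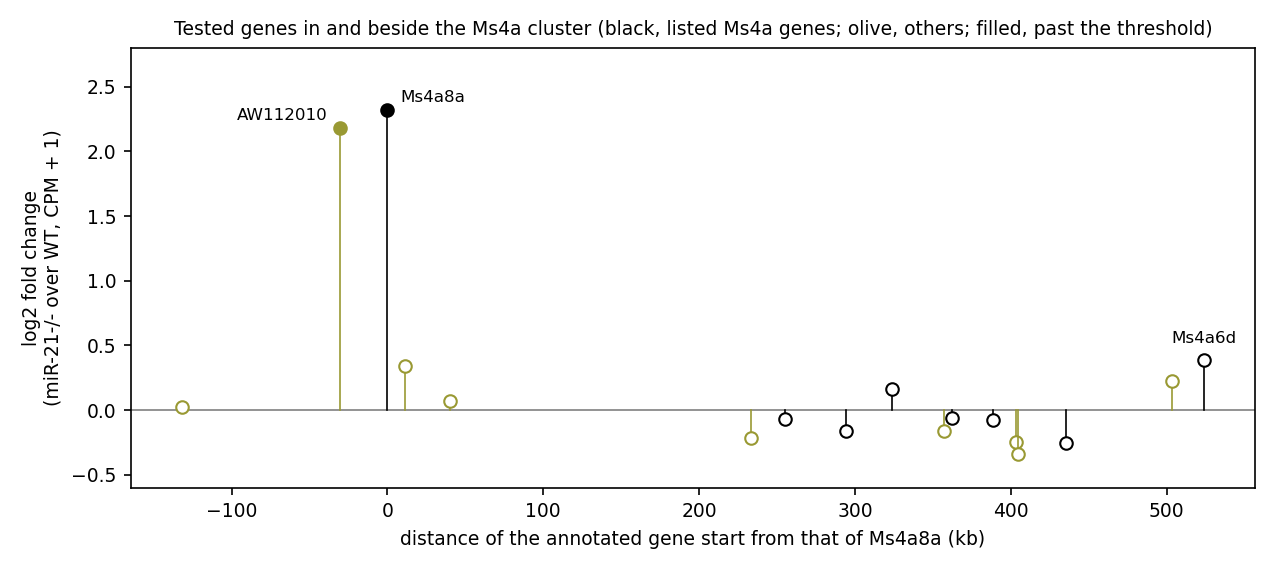
Log2 fold change of CPM + 1, miR-21-/- over WT, of each tested gene in and beside the Ms4a cluster, by the distance in kb of its annotated start from that of Ms4a8a (black, the 8 Ms4a genes; olive, others; filled, past the threshold). AW112010 at 2.18, with 30.5 kb between the starts, and Ms4a8a at 2.32 stand together, and the other points lie between -0.34 and 0.39.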

How the data were processed

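The authors deposited 1 table of CPM values (counts per 1e+06 reads, each raised by 0.0001) for 53247 genes, which they made with the Partek software. Their processing notes name STAR, Partek 7.0 and mm10; the counting rule and strand are not given in the sources used here. Column totals were 788099 to 807758 CPM. At most 76.3% of the low values (up to 20 reads) fell within 0.05 of a whole read, so whole reads were not recovered and no count test was run.

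From the deposited CPM, log2(CPM + 1) was modelled by genotype in limma 3.58.1 under R 4.3.3 (lmFit, eBayes with an intensity trend, two-sided); a gene was tested, as 13850 were, when its mean reached 1 part in 1e+06 of the column totals. Limits for a call were those of the study. Single values were compared by exact permutation tests over the samples. The model was tested on simulated data. Annotation and transcripts were GENCODE vM21 (GRCm38), whose start and end matched the table for 7 of the 8 genes, all but Ms4a4b; the miRNA and promoters were from RefSeq (GRCm38.p6), which gave a promoter for 7 of 8. Plots were made in matplotlib 3.10.9.

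The genes named are the 8 Ms4a genes, the genes of the lists of other Ms4a, MS4A-like and partner genes, the highest or lowest genes of the marker lists, the genes of the cluster and its flanks, and the 2 genes most like a called one. Members and lists were chosen with earlier results of these data known. Alternatives were another pseudocount (0.1 or 10), no filter or a filter of 5, quantile or median-of-ratios scaling, no trend, arrayWeights, a replicate block, a looser threshold, another gene length and leaving out each sample. Other data types of the study were not analysed here.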

Additional observations from a re-analysis of the deposited data

Results flagged for a closer look

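Among 24 groups of 4 values examined for Ms4a and MS4A-like genes, 1 had a sample that stood apart from the others by Dixon's test. For groups not chosen by their values, chance alone gives about 1 in 20. Ms4a1, which encodes CD20 of B cells, was at 1.27 CPM in miR-21-/- replicate 1, against 0.269 to 0.330 CPM in the other miR-21-/- samples. The gap was 0.939 of the range of the group, above the 95% critical value for 4 samples. Genes outside the listed Ms4a set were examined only if some sample exceeded 1 CPM. Ms4a1 did so only through this value, so the chance rate of 1 in 20 does not apply to it. The 6 B cell genes summed to 11.8 CPM in the same sample and to 3.69 to 4.95 CPM in the other miR-21-/- samples, and Ms4a1 was at 0.416 to 0.568 CPM in WT. The part of B cells in this value was not tested.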

How the results depend on the processing

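Ms4a8a was called higher under all 18 alternatives. Of these, 1, the looser threshold, reused the main fit, so that a gene called there passes by construction. Log2 fold changes were 1.48 to 2.47 in the 10 that kept all samples and 2.17 to 2.56 when each sample was left out. Under an adjusted p of 0.05 with no fold change limit, 2 of the 8 genes were higher and 1 lower (Ms4a6d and Ms4a6b joined), and 4982 genes of the table passed instead of 986. The table gave 452 genes with a pseudocount of 10 and 581 with no filter. AW112010, Clec7a, Tmem176a and Tmem176b were also called in all 18, with log2 fold changes of 2.02 to 2.30, 1.45 to 1.64, -3.43 to -1.77 and -3.66 to -2.43. The values nearest 0 for Ms4a8a, Tmem176a and Tmem176b were those with a pseudocount of 10, which shrinks changes of low genes by construction.

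The direction of 3 uncalled genes depended on the scaling. Ms4a4b had a log2 fold change of 0.10 after quantile normalization and 0.043 with the median of ratios, and between -0.27 and 0.066 when each sample was left out. Ms4a6c was at 0.038 and Ms4a7 at 0.047 with the median of ratios, and Ms4a7 between -0.13 and 0.014 when each sample was left out. These scalings moved the median of all genes by 0.095 and 0.0998, and called 491 higher and 337 lower (quantile) and 520 higher and 350 lower (median of ratios), against 400 and 586. The adjusted p of Ms4a6b lay between 0.0236 and 0.292 and that of Ms4a6d between 0.00432 and 0.0358. The cause of these shifts was not tested.

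The replicate numbers did not pair the samples: correlations of same-numbered samples were 0.083, -0.11, -0.14 and 0.22, and 3 of 8 samples correlated best with their own number. The names of the miR-21-/- samples do not follow these replicate numbers, and a pairing by name was not tested. With a replicate block, 922 genes were called in the table, 1 of the 8 Ms4a genes was higher (Ms4a8a, adjusted p = 0.000249) and 0 lower. All 8 genes passed the filter, so no level under the filter was recomputed. The 4 samples per genotype limit the precision, as do few reads for the Ms4a genes under the filter.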
